A study of Mus musculus with 4 samples.

Results

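Chemokine genes linked to interferon, and the genes of their receptors, were followed through CD45+ cells of the mouse nasal mucosa. The members were the 5 genes Cxcl9, Cxcl10, Cxcl16, Cxcr3 and Cxcr6, chosen by symbol among the 27998 genes measured, and each had exactly 1 row. The cells came from 8-week-old C57BL/6 mice in 4 groups, with 1 single-cell library each: Vehicle and Vehicle-OVA, and Ribavirin and Ribavirin-OVA. Vehicle and Ribavirin mice received the solvent or the antiviral nucleoside analogue ribavirin and no ovalbumin (OVA), while the groups marked OVA were sensitised and challenged with this allergen to model allergic rhinitis. The labels name no mutant allele or transgene in any group. The number of mice in each library and the dose of ribavirin were not given in the sources used here, so a library may hold pooled animals, and a difference between animals, digests or runs cannot be told apart from a difference between groups. With 1 library per group no test was possible, and the 95% intervals given below are exact and cover counting error only.

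CXCL9 and CXCL10 are secreted chemokines that macrophages, monocytes and other cells make in response to interferon, chiefly interferon gamma, and both draw cells that carry the receptor CXCR3, such as type 1 helper T cells, cytotoxic T cells and natural killer (NK) cells. CXCL10 is also induced by type I interferons and by NF-kB. CXCL16 is made as a membrane protein on macrophages and dendritic cells, also serves as a scavenger receptor, and is cut from the surface by the protease ADAM10. Its receptor CXCR6 marks lymphocytes that stay in tissues.

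In the GENCODE M21 annotation of GRCm38, Cxcl9 (ENSMUSG00000029417) lies on the minus strand at chr5:92321347-92328079 with 4 exons, and Cxcl10 (ENSMUSG00000034855) follows on the same strand at chr5:92346638-92348889, also with 4 exons and 18558 bases away. Cxcl16 (ENSMUSG00000018920) lies at chr11:70453983-70459984 on the minus strand with 5 exons, Cxcr3 (ENSMUSG00000050232) at chrX:101731535-101734269 on the minus strand with 2 exons, and Cxcr6 (ENSMUSG00000048521) at chr9:123806475-123811760 on the plus strand with 2 exons. The promoter table of RefSeq (GRCm38.p6) held 4 of the 5 members. The windows of Cxcl9 and Cxcl10 are shown because these genes are neighbours, and whether their letters bear on the levels below was not tested. Each runs 5′ to 3′ from 250 bases before to 50 bases after the annotated start, on the minus strand (chr5:92328030-92328329 and chr5:92348840-92349139), and capitals mark motif matches.
Cxcl9: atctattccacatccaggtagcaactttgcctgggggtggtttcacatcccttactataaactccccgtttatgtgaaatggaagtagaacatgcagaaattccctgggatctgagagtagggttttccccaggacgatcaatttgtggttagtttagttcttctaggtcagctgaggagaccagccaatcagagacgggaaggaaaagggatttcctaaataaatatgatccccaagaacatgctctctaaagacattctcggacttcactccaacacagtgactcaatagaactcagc
Cxcl10: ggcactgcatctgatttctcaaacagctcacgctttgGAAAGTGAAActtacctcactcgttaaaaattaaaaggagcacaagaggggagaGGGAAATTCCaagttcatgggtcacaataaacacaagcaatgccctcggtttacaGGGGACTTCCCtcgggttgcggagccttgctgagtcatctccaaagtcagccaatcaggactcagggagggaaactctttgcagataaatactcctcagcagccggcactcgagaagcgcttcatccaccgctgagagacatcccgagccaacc
Both strands were searched for the interferon gamma-activated site TTCNNNGAA, the core of the interferon-stimulated response element (GAAA, 2 bases of any kind, GAAA) and the NF-kB consensus. In the Cxcl10 window the response element core matched at base -213 from the start, and NF-kB matched at -159, -104 and -103, the last 2 overlapping. The Cxcl9, Cxcr3 and Cxcr6 windows held no match to any of the 3. Of 32851 promoter windows, 8.30% held TTCNNNGAA, 3.44% held the response element core and 8.46% held NF-kB. Such letters, or their absence, describe the window and are not evidence of binding or of its lack.

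The libraries held 10311 to 28277 cells with median depths of 3389 to 4952 unique molecular identifiers (UMIs, each counted as 1 captured transcript), and the leukocyte gene Ptprc, which encodes CD45, had a UMI in 81.3% to 89.3% of cells. Pairs of libraries shared 57 to 174 cell barcodes. After filtering, 69718 cells formed 43 clusters, built without the 5 members or the listed pathway genes. Cluster names ending in -like were rebuilt here from marker genes. Levels are CPM, the share of a gene among the UMIs summed over a set of cells, scaled to 1e6. Because the cluster with the most Cxcl9 changed its class name between clusterings, 2 wider sets were added after seeing the data: the 10 clusters that scored best as macrophage, monocyte or conventional dendritic cell (cDC), called mononuclear phagocytes here, and the 7 that scored best as T cell, called T cell clusters. The mononuclear phagocytes held C1qa at 2307 to 3156 CPM and Cd3e at 1.16 to 2.55 CPM, and the T cell clusters held Cd3e at 357 to 379 CPM and C1qa at 29.8 to 38.2 CPM. Other markers differed more between Vehicle, Vehicle-OVA, Ribavirin and Ribavirin-OVA. In the T cell clusters Cd3d was at 940, 537, 875 and 471 CPM, Cd3g at 1271, 642, 1218 and 679, and Cd28 at 284, 489, 244 and 541. In the mononuclear phagocytes C1qb was at 2989, 1246, 2525 and 1363 CPM. The sets were thus not alike in their markers with and without OVA. The neutrophil genes S100a8 and S100a9 were highest in Vehicle-OVA within each set (945 and 1294 CPM in the mononuclear phagocytes, against 210.2 and 374 in Vehicle), and their part in the results was not tested. The mix of cells differed between libraries: neutrophil-like cells made up 46.8% of Vehicle-OVA and 17.7% to 23.3% of the other libraries, and T cell clusters made up 9.03% of Vehicle-OVA and 20.2% to 26.2% of the others.

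Over all cells, Cxcl9 was the member that differed most with OVA. Its level was 283 CPM in Vehicle, 37.5 in Vehicle-OVA, 153 in Ribavirin and 45.8 in Ribavirin-OVA, so both OVA libraries lay below both libraries without OVA. The ratio of Vehicle-OVA to Vehicle was 0.133 (0.128 to 0.137) and that of Ribavirin-OVA to Ribavirin 0.299 (0.289 to 0.309). Cxcl10 was measured at 185, 149, 166 and 70.9 CPM in the same order, and the ratios were 0.805 (0.789 to 0.822) and 0.427 (0.415 to 0.439). It was therefore lowest in Ribavirin-OVA, while the other 3 libraries lay closer together. Cxcl16 stood at 256, 267, 205 and 233 CPM, with ratios of 1.04 (1.03 to 1.06) and 1.14 (1.12 to 1.16). The log2 ratio under ribavirin changed sign, from 0.18 to -0.12, when taken relative to the median gene, and that under vehicle, from 0.06 to -0.0461, as a mean over single cells.

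Of the receptors over all cells, Cxcr3 was at 30.8 CPM in Vehicle, 10.3 in Vehicle-OVA, 22.6 in Ribavirin and 18.2 in Ribavirin-OVA. Its OVA ratio was 0.336 (0.313 to 0.360) under vehicle and 0.807 (0.759 to 0.857) under ribavirin. Cxcr6 was at 114, 78.0, 84.5 and 133 CPM, with ratios of 0.685 (0.667 to 0.705) and 1.58 (1.54 to 1.62), so it was lower with OVA in the vehicle pair and higher in the ribavirin pair. At least 2-fold lower with OVA were 2 of the 5 members under vehicle (Cxcl9 and Cxcr3), where 5.17% of the 16708 genes tested were so, and 2 of 5 under ribavirin (Cxcl9 and Cxcl10), where 1.16% were. None was at least 2-fold higher, against 7.07% and 5.33% of genes. Across the genes tested the median log2 ratio was 0.00 in the vehicle pair and 0.30 in the ribavirin pair.

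**Figure D1:**
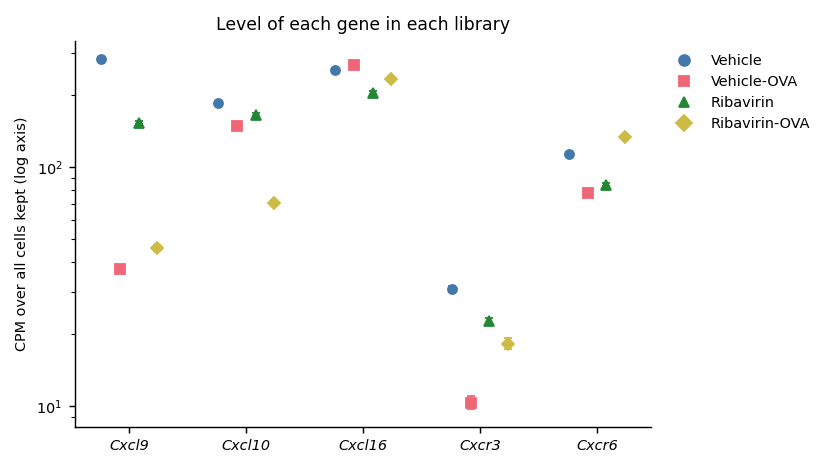
Level of each member (CPM of UMIs summed over all cells kept, log axis) in each of the 4 libraries, with exact 95% Poisson intervals that cover counting error only and are often smaller than the symbol. Cxcl9 is at 283 and 153 CPM without OVA and at 37.5 and 45.8 CPM with OVA, and levels should be compared between libraries for a gene, not between genes.

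The 2 ribavirin comparisons use the same 4 libraries as the OVA comparisons and are given side by side with them. Without OVA, Ribavirin over Vehicle was 0.542 (0.533 to 0.551) for Cxcl9, 0.897 for Cxcl10, 0.801 for Cxcl16, 0.734 for Cxcr3 and 0.743 for Cxcr6. Only Cxcl9, 1 of 5, was at least 1.5-fold apart, where 11.5% of genes were. With OVA, Ribavirin-OVA over Vehicle-OVA was 1.22 (1.17 to 1.28) for Cxcl9, 0.475 (0.461 to 0.490) for Cxcl10, 0.872 for Cxcl16, 1.76 (1.63 to 1.91) for Cxcr3 and 1.71 (1.66 to 1.76) for Cxcr6. Here 3 of 5, Cxcl10, Cxcr3 and Cxcr6, were at least 1.5-fold apart, where 29.9% of genes were, and taken relative to the median ratio of all genes the count was 1.

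These values mix the level within a cell type with the number of cells of that type. When the class levels of each library were weighted by the class mix of Vehicle, over 16 classes and sets with 97.1% of Vehicle's UMIs, the log2 OVA ratio was -2.29 for Cxcl9 under vehicle and -1.28 under ribavirin, against -2.92 and -1.88 as measured over the same cells. Cxcl10 came to -0.72 and -1.19, and Cxcl16 to -0.06 and -0.18. Cxcr3 came to -0.58 and -0.10. Cxcr6 turned from -0.62 to 0.74 under vehicle and went from 0.62 to 0.93 under ribavirin, so that with a fixed class mix it was higher with OVA in both pairs.

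The cells that held each gene were then identified. The mononuclear phagocytes held 94.5% of Cxcl9 UMIs in Vehicle, 88% in Vehicle-OVA, 91.2% in Ribavirin and 82.0% in Ribavirin-OVA, while they made up 16.5% to 26.6% of cells. They held 89.8% to 96.0% of Cxcl16 UMIs. Cxcl10 was spread more widely, with 62.5%, 40.4%, 56.0% and 52.7% of its UMIs in these cells and 19.9%, 46.5%, 20.9% and 19.2% in neutrophil-like cells, so that neutrophil-like cells held the larger share in Vehicle-OVA. The T cell clusters held 85.7% to 94.9% of Cxcr6 UMIs and 68.0% to 70.5% of Cxcr3 UMIs. ILC2-like cells (group 2 innate lymphoid cells, which release type 2 cytokines) held 1.26% to 1.29% of Cxcr6 UMIs without OVA and 6.86% and 10.5% with it. Plasmacytoid dendritic cell (pDC)-like cells, known as makers of type I interferon, held 6.31% to 12.1% of Cxcr3 UMIs.

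**Figure D2:**
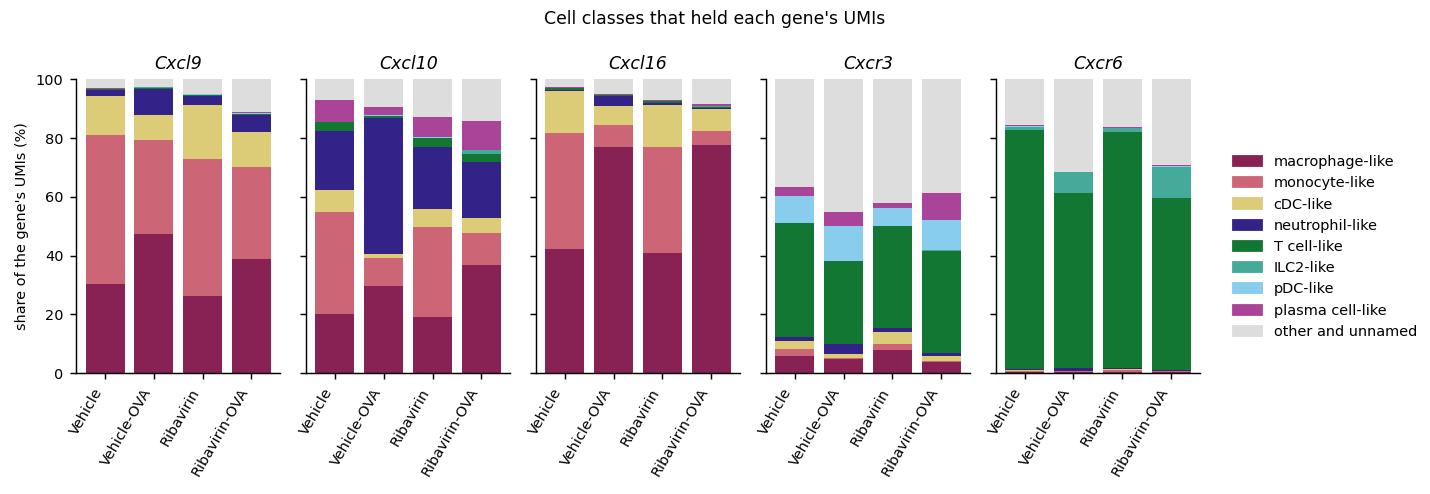
Share of each member's UMIs (percent, vertical axis) held by the named cell classes in each library, where grey stands for all other and unnamed clusters, among them the T cell clusters 9 and 14. Macrophage-, monocyte- and cDC-like cells hold most Cxcl9 and Cxcl16, neutrophil-like cells hold 46.5% of Cxcl10 in Vehicle-OVA, and T cell-like cells hold 58.6% to 81.1% of Cxcr6.

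Within the mononuclear phagocytes, Cxcl9 was again far lower in the OVA libraries. It was at 647 CPM in Vehicle, 98.7 in Vehicle-OVA, 419 in Ribavirin and 124 in Ribavirin-OVA, with ratios of 0.152 (0.147 to 0.158) and 0.295 (0.285 to 0.307). The set was made of different clusters with OVA. Cluster 10 (Ccl24, Arg1) gave 26 of its 6441 cells, 1807 of 2833, 54 of 5120 and 1287 of 2172 in the same order. Cluster 2 (Ly6i, Cxcl9) gave 2548, 319, 1836 and 134. Ratios over the mononuclear phagocytes thus mix the level within clusters with the mix of clusters. At least 2-fold lower in these cells were 2.79% of genes under vehicle and 1.93% under ribavirin, and at least 2-fold higher 7.7% and 5.87%. A Cxcl9 UMI was found in 34.5%, 9.50%, 24.9% and 9.76% of these cells at median depths of 9063 to 10086 UMIs, and in 17.1%, 3.78%, 11.3% and 4.09% after each cell was thinned to 1000 UMIs, which left out cells below that depth. In T cell-like cells, which are not known as a source of CXCL9 and served as the reference for free RNA, the share was 2.55%, 0.384%, 2.21% and 1.0% at median depths of 4294 to 5125 UMIs. The share in mononuclear phagocytes was above the reference in all 4 libraries, and both moved down with OVA. Over 9 clusterings the log2 ratio ran from -2.78 to -2.64 under vehicle and from -1.79 to -1.73 under ribavirin. Each clustering pools all clusters of the set, so these ranges cannot show shifts of cells among them.

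The drop in Cxcl9 appeared in several separate clusters. In cluster 5 (led by Cxcl13 and Ccl12), a macrophage-like cluster, Cxcl9 was at 605, 179, 371 and 198 CPM. In cluster 12 (Ccl17, Ccr7), cDC-like, it was at 468, 93.3, 378 and 136 CPM, and in cluster 18 (Ace), monocyte-like, at 19.0, 4.01, 20.9 and 1.56 CPM. In each of these clusters both OVA libraries lay below both others. The level of cluster 18 was low and rested on few UMIs. Monocyte-like cells without cluster 2, most of them from cluster 18, held 47, 10, 70 and 5 Cxcl9 UMIs. The part of free RNA in that cluster was not tested. Cluster 10 (Ccl24, Arg1), macrophage-like, held 26 and 54 cells without OVA and 1807 and 1287 with it, and its Cxcl9 was at 74.8 CPM in Ribavirin-OVA against 281 in Ribavirin, a ratio of 0.266 (0.228 to 0.313). Of the mononuclear phagocyte clusters with at least 50 cells in both libraries and at least 50 Cxcl9 UMIs, 4 of 4 were lower with OVA beyond counting error under vehicle and 4 of 5 under ribavirin.

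The exception was cluster 2, led by Ly6i and Cxcl9 and with 2548, 319, 1836 and 134 cells, which scored best as monocyte. Its Cxcl9 was at 928 CPM in Vehicle, 386 in Vehicle-OVA, 628 in Ribavirin and 952 in Ribavirin-OVA, so that the ratio was 0.416 (0.391 to 0.442) under vehicle and 1.52 (1.43 to 1.61) under ribavirin. The share of its cells with a Cxcl9 UMI was 42.1%, 17.9%, 31.1% and 27.6%, which in the ribavirin pair goes the other way from the CPM, and no order is read from it. Cxcl9 UMIs were bunched in few cells. In Ribavirin-OVA 20 cells held 50% of all 3832 Cxcl9 UMIs, and over the 4 libraries 6.12% to 6.94% of the cells with a Cxcl9 UMI held that share, with up to 381 UMIs in 1 cell. Counting intervals treat UMIs as separate draws and are too narrow for such a gene.

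Monocyte-like cells as a class, clusters 2 and 18 with minor ones, were at 833, 212, 522 and 276 CPM for Cxcl9, at 372, 248, 371 and 146 for Cxcl10 and at 588, 350.1, 540.5 and 214 for Cxcl16. Cluster 2 gave 2548 of the 2980 cells of the class in Vehicle, 319 of 566 in Vehicle-OVA, 1836 of 2343 in Ribavirin and 134 of 427 in Ribavirin-OVA, so the class held a smaller share of them with OVA. Under other filters, clusterings and ways of naming, the log2 Cxcl9 ratio of the class ran from -7.71 to -1.79 under vehicle and from -5.53 to -2.15 under ribavirin, against -1.98 and -0.92 here. Within cluster 2, Cxcl10 was at 408, 415, 431 and 455 CPM and Cxcl16 at 654, 627, 651 and 702 CPM, which for Cxcl10 differed by no more than counting error in either OVA pair.

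Cxcl10 was also lower with OVA in the mononuclear phagocytes, by less than Cxcl9 under vehicle. It was at 280.1, 180.1, 279 and 123 CPM, with ratios of 0.643 (0.624 to 0.663) and 0.442 (0.425 to 0.459), and a UMI was found in 23.1%, 18.2%, 23.9% and 12.5% of cells, against 7.90%, 6.4%, 8.53% and 5.25% of T cell-like cells. Vehicle and Ribavirin did not differ beyond counting error here (0.996, 0.974 to 1.02). The level was 258, 143, 269 and 57.5 CPM in cluster 5, and 128, 47.5, 138 and 74.9 CPM in cluster 12. In neutrophil-like cells, short-lived phagocytes of the innate response, Cxcl10 was at 482, 215, 348 and 167 CPM with ratios of 0.447 (0.431 to 0.463) and 0.479 (0.449 to 0.511). There both OVA libraries were again the lowest. In this class 1931 of 10492 genes were at least 2-fold lower under vehicle and 201 under ribavirin, with median log2 ratios of -0.43 and 0.43 over all genes. Clusters that scored best as neutrophil take in the unnamed clusters 1 and 7, which lie outside this class. Of the 6 such clusters measured in each pair, 5 were lower for Cxcl10 beyond counting error under vehicle and 4 under ribavirin. Cluster 21 (Camp, Ngp) was higher under ribavirin, at 15.6 CPM in Ribavirin and 73.8 in Ribavirin-OVA. The largest cluster of the class was cluster 0 in Vehicle and Ribavirin-OVA, cluster 4 in Ribavirin and cluster 6 in Vehicle-OVA. Neutrophil-like Cxcl10 was low per UMI in Vehicle-OVA although these cells held its largest share there, since they made up 46.8% of the library. Cluster 6 (Csf3, Cxcl3), a neutrophil-like cluster with 3426 of its 3613 cells in Vehicle-OVA, was at 315 CPM there, and cluster 0 (Cxcr2, Mmp9) was at 589.7, 249.6, 539.6 and 127 CPM.

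Cxcl10 was found more often in cells that also held Cxcl9. In macrophage-like cells a Cxcl10 UMI was found in 33.7%, 36.6%, 38.4% and 32.6% of cells with a Cxcl9 UMI and in 21.5%, 16.8%, 24.8% and 11.6% of those without. The cells with a Cxcl9 UMI were deeper, at median 11318 to 14774 UMIs against 9329 to 10061, and the part of depth in the difference was not tested. In neutrophil-like cells the shares were 28.3%, 44.4%, 29.1% and 39.1% against 11.4%, 11.2%, 10.9% and 6.41%, on 173, 72, 148 and 23 cells with a Cxcl9 UMI.

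Cxcl16 differed less with OVA than Cxcl9 over the mononuclear phagocytes. In these cells it was at 595, 726, 562 and 691 CPM, ratios of 1.22 (1.20 to 1.24) and 1.23 (1.21 to 1.25), and in macrophage-like cells at 718, 854, 715 and 881 CPM, where 92.5% to 94% of cells had a UMI. Both OVA libraries were thus the higher ones. The log2 ratios in macrophage-like cells, 0.25 and 0.30, lay close to the median of all genes in these cells, 0.18 and 0.21. Most macrophage-like cells came from cluster 5 without OVA (1951 of 2188 in Vehicle and 1428 of 1712 in Ribavirin) and from cluster 10 with it (1807 of 1974 in Vehicle-OVA and 1287 of 1459 in Ribavirin-OVA), so the class compares different clusters. Within cluster 5 Cxcl16 was at 758, 916, 744 and 935 CPM. In monocyte-like cells it was lower with OVA, with ratios of 0.596 (0.567 to 0.625) and 0.396 (0.370 to 0.423). Cluster 2 made up a smaller share of that class with OVA, so this class too compares different mixes of clusters. Within cluster 2, as given above, Cxcl16 differed less with OVA and was not lower under ribavirin. In cDC-like cells it was at 405, 463, 369.9 and 378 CPM. In neutrophil-like cells it was at 15.7, 29.1, 15 and 15.5 CPM, highest in Vehicle-OVA.

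**Figure D3:**
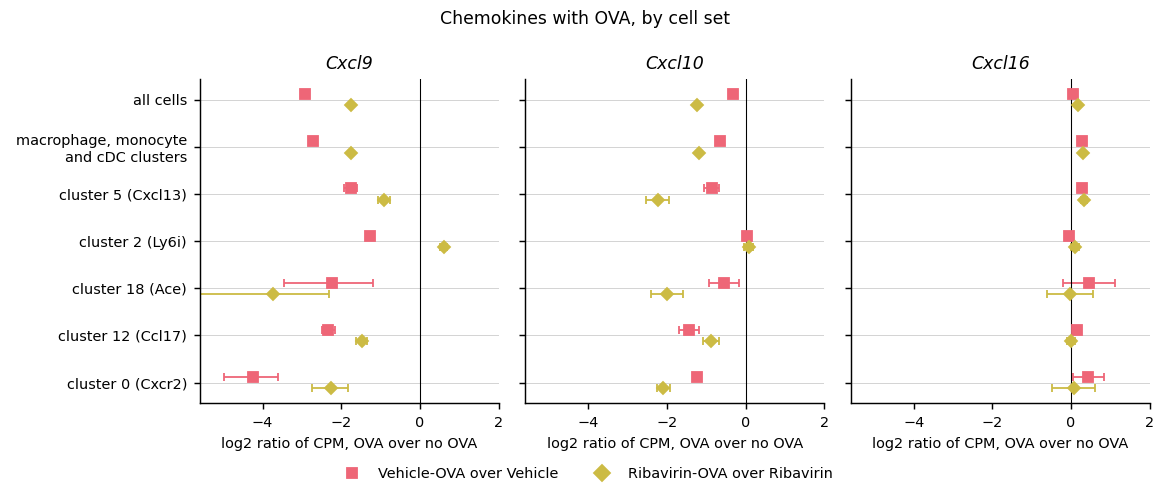
Log2 ratio of CPM with OVA over without OVA for the 3 chemokines, under vehicle (squares) and under ribavirin (diamonds), over all cells, over the mononuclear phagocytes and in 5 clusters, with exact 95% intervals for counting error. Cxcl9 lies left of 0 in all sets but cluster 2 under ribavirin, Cxcl10 lies left of 0 in all but cluster 2, and Cxcl16 lies at 0.29 and 0.30 in the mononuclear phagocytes.

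Transcript length moved with the OVA ratios: in the mononuclear phagocytes the median log2 ratio was -0.40 and -0.31 over the shortest 10% of genes and 0.40 and 0.44 over the longest 10%, under vehicle and ribavirin. Among genes whose longest coding (CCDS) transcript was within 25% of that of the member, the median log2 ratio in the mononuclear phagocytes was 0.27 and 0.32 (vehicle and ribavirin) for Cxcl9, -0.26 and -0.16 for Cxcl10 and 0.24 and 0.30 for Cxcl16. The members' own ratios were -2.70 and -1.75, -0.63 and -1.17, and 0.29 and 0.30. In these cells Cxcl9 and Cxcl10 thus lay below genes of like length and Cxcl16 near their median. Over all cells under vehicle Cxcl10 lay at -0.31, against -0.39 for genes of its length. The spread was wider in the T cell clusters, at -0.53 and -0.53 over the shortest 10% of genes and 0.76 and 0.72 over the longest 10%. Among genes of like length there, the medians were 0.11 and 0.12 for the length of Cxcr3 and 0.19 and 0.20 for that of Cxcr6.

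Among the receptors, Cxcr6 was higher with OVA in every T cell cluster measured. Over the T cell clusters it was at 505 CPM in Vehicle, 758 in Vehicle-OVA, 498 in Ribavirin and 901 in Ribavirin-OVA, with ratios of 1.5 (1.46 to 1.54) and 1.81 (1.76 to 1.86). Both OVA libraries were above both others. A UMI was found in 68.6%, 70.7%, 68.9% and 77.9% of these cells, and in 36.7%, 42.7%, 34.2% and 51.0% after thinning, against 0.956%, 0.708%, 0.789% and 1.30% of neutrophil-like cells at median depths of 2085 to 3217 UMIs. Over 9 clusterings the log2 ratio ran from 0.57 to 0.73 and from 0.85 to 0.93. Here too the clusters are pooled, so the ranges cannot show shifts of cells among them. All 5 T cell clusters with at least 50 cells in each library were higher in both pairs beyond counting error. Over these cells 13% and 9.08% of genes were at least 2-fold higher under vehicle and ribavirin, and 3.06% and 3.15% lower. The log2 ratios of Cxcr6 were 0.58 and 0.85, against a median of 0.38 and 0.36 over all genes in these cells. Most genes there were thus higher with OVA as well.

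The T cell clusters differed among themselves. Cxcr6 was highest in cluster 11 (Cd163l1), where Cxcr6 is among the leading genes, at 1027, 1527, 905 and 1575 CPM. It was at 603, 707, 581 and 707 CPM in cluster 3 (Il17a, Il17f), and at 307, 540.0, 329 and 812 CPM in cluster 9 (Ms4a4b, Nkg7, Ccl5, Gzmk). In cluster 3 Cxcr6 rose by less than the median gene of that cluster, whose log2 ratio was 0.36 and 0.33. Cluster 14 (Tnfrsf4, Foxp3), where Foxp3 encodes the defining factor of regulatory T cells, had the lowest level without OVA and the largest ratios, with 198, 448, 140.3 and 479.6 CPM and ratios of 2.26 (2.03 to 2.53) and 3.42 (3.04 to 3.85), where 12.6% and 10.6% of genes were at least 2-fold higher. Among cells with a Foxp3 UMI in the T cell clusters, Cxcr6 was at 170.2, 345, 151 and 271 CPM. A Cxcr6 UMI was found in 32.4%, 35.8%, 33.1% and 31.1% of them. These cells are a different set from cluster 14, and the share with a Cxcr6 UMI did not rise with the level in both pairs. Cluster 20, of dividing cells, was at 238, 436, 269 and 446 CPM.

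Cxcr3 did not follow Cxcr6. Over the T cell clusters it was at 102 CPM in Vehicle, 76.3 in Vehicle-OVA, 99.3 in Ribavirin and 98.6 in Ribavirin-OVA, so that only Vehicle-OVA stood lower. The ratio was 0.751 (0.689 to 0.817) under vehicle and 0.993 (0.923 to 1.07) under ribavirin. A UMI was found in 30.0%, 24.5%, 32.4% and 33.6% of cells, against 1.14%, 0.335%, 1.23% and 0.848% of neutrophil-like cells. The clusters differed in direction. In cluster 14 Cxcr3 was at 144, 49.8, 174 and 53.9 CPM, ratios of 0.345 (0.267 to 0.441) and 0.309 (0.248 to 0.383), where 3.68% and 3.67% of genes were at least 2-fold lower. In the dividing cluster 20 it was at 76.9, 27.1, 79.8 and 40.2 CPM. In both clusters the OVA libraries lay below the others. In cluster 3 it was at 77.3, 84.0, 74.0 and 106 CPM, in cluster 11 at 75.5, 57.7, 47.1 and 91.8 CPM, and in cluster 9, which had the highest level of these 5 in every library, at 180.3, 129, 181 and 160.4 CPM.

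**Figure D4:**
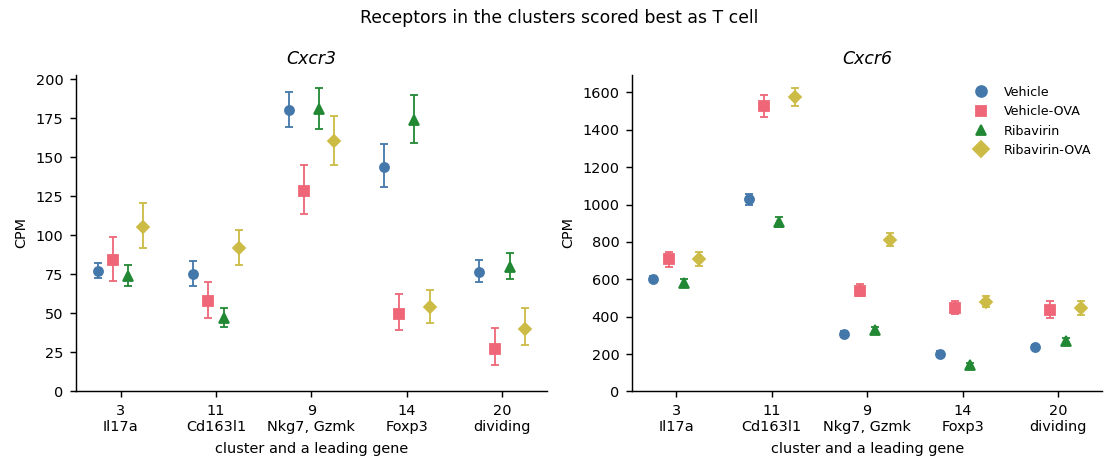
Cxcr3 (left) and Cxcr6 (right) in 5 T cell clusters (horizontal axis, each with a leading gene) as CPM from 0, for the 4 libraries, with exact 95% Poisson intervals for counting error. In cluster 14 the OVA libraries are lower for Cxcr3 (49.8 and 53.9 CPM against 144 and 174) and higher for Cxcr6 (448 and 479.6 CPM against 198 and 140.3).

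The same cells were also split by the T cell genes with a UMI, without the clusters. Among cells of the T cell clusters with Foxp3, Cxcr3 was at 144, 66.8, 166 and 87.7 CPM and Cxcr6 at 170.2, 345, 151 and 271 CPM. Among those with Cd8a or Cd8b1 and no Cd4, Cxcr3 was at 127, 57.0, 99.1 and 102 CPM and Cxcr6 at 468, 926, 617 and 1163 CPM. Among those with Cd4 and neither Cd8 gene nor Foxp3, Cxcr3 was at 88.2, 93.5, 97.4 and 110.0 CPM and Cxcr6 at 508, 602, 472 and 773 CPM. By CPM, Cxcr6 was higher with OVA in all 3 splits of both pairs, and Cxcr3 lower in both pairs only among cells with Foxp3. The share of cells with a Cxcr6 UMI went the other way from 33.1% to 31.1% among cells with Foxp3 under ribavirin, and from 74.2% to 68.7% among those with Cd4 under vehicle, so no order is read for these. Cells with a Cxcr3 UMI held a Cxcr6 UMI in 67.1%, 75.9%, 65.6% and 86.7% of cases in the T cell clusters, against 69.2%, 69.1%, 70.5% and 73.5% of the others. The intervals in Vehicle-OVA overlapped (71.2% to 80.1% and 66.4% to 71.7%). Cells with a Cxcr3 UMI were deeper, at median 5206 against 4511 UMIs in Vehicle-OVA and 5697 against 4889 in Ribavirin-OVA, and the part of depth was not tested.

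Outside T cells, Cxcr6 was at 461, 743, 344 and 691 CPM in ILC2-like cells, ratios of 1.61 (1.37 to 1.90) and 2.01 (1.71 to 2.38), on 100 to 204 cells. In NK-like cells it was at 68.0, 102, 59.4 and 112 CPM, ratios of 1.5 (1.11 to 2.00) and 1.89 (1.49 to 2.40). The OVA libraries were above the others in both classes. In ILC2-like cells, however, 1655 and 1560 of 6917 genes were at least 2-fold higher with OVA under vehicle and ribavirin. The median log2 ratio of all genes was 0.42 in both pairs there, and 0.29 and 0.27 in NK-like cells. NK-like Cxcr3 was at 55.4, 42.5, 41.4 and 34.9 CPM, with ratios of 0.767 (0.492 to 1.16) and 0.844 (0.576 to 1.22) that cover 1. In pDC-like cells Cxcr3 was at 59.1, 48.7, 45.3 and 64.3 CPM, with a UMI in 27.4% to 37.1% of cells. In B cell-like cells it was at 30.7, 11.8, 40.9 and 9.18 CPM on 8 to 52 UMIs. Macrophage-like cells had a Cxcr3 UMI in 10.1%, 1.98%, 11.3% and 2.95% of cells, at median depths of 10027.5 to 10306 UMIs, but after thinning to 1000 UMIs the shares were 1.37%, 0.308%, 0.876% and 0.0692%, against 0.431%, 0.138%, 0.417% and 0.527% of neutrophil-like cells, so that in Ribavirin-OVA it lay below the reference.

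**Figure D5:**
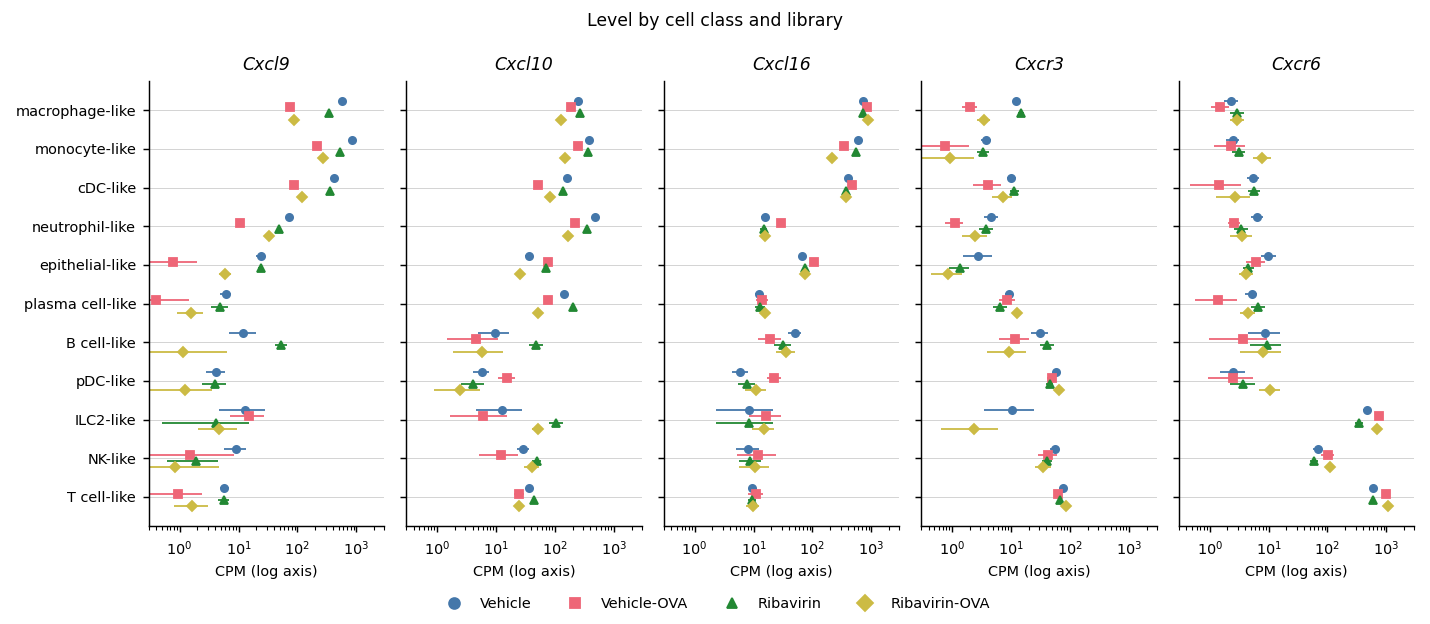
CPM of each member (log axis) by cell class and library, for classes with at least 50 cells in that library, with exact 95% Poisson intervals for counting error. Points with no UMI are not drawn. Cxcl9 and Cxcl16 are high in macrophage-, monocyte- and cDC-like cells, Cxcl10 also in neutrophil- and plasma cell-like cells, Cxcr3 in T cell-, NK- and pDC-like cells, and Cxcr6 in T cell- and ILC2-like cells.

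The order of the classes by level, among those with at least 50 cells in every library, put monocyte-like cells first for Cxcl9 in every library. This holds for the clustering used here, which names cluster 2 monocyte-like. With doublets kept, monocyte-like cells held 19 Cxcl9 UMIs in Vehicle-OVA, against 1106 here. Macrophage-like and cDC-like cells came next, and in Ribavirin their intervals overlapped (336 to 353 and 343 to 365 CPM). For Cxcl10 the neutrophil-like class led in Vehicle, at 482 CPM. Monocyte-like cells led in Ribavirin and Vehicle-OVA, at 371 and 248 CPM, and in Ribavirin-OVA the intervals of neutrophil-like and monocyte-like cells overlapped (157 to 176 and 135 to 158 CPM). For Cxcl16 macrophage-like cells led in every library. For Cxcr3 the T cell-like class led in every library, followed in Vehicle by pDC-like and NK-like cells, whose intervals overlapped (53.6 to 65.0 and 46.4 to 65.5 CPM). In Vehicle-OVA the intervals of T cell-like and pDC-like cells overlapped (54.7 to 69.8 and 40.3 to 58.4 CPM). For Cxcr6 T cell-like cells led and ILC2-like cells came second in every library.

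The genes upstream and around the members were described from a list of 42 interferon, signalling, target and lymphocyte genes, of which 41 were found and Cxcl11 was not analysed here. Ifng, the gene of interferon gamma, was at 41.7, 15.2, 31 and 27.8 CPM over all cells, ratios of 0.364 (0.343 to 0.386) and 0.896 (0.852 to 0.942). In the T cell clusters Ifng was at 165, 148, 158 and 185 CPM, and in NK-like cells at 289, 105, 276 and 196 CPM, so that the OVA libraries were lowest in the NK-like cells and not in the T cell clusters. Irf1, a target and driver of interferon-induced genes, was at 179, 167, 215 and 216 CPM in the mononuclear phagocytes.

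In the mononuclear phagocytes 38 of the 41 genes were measured. Of these 6 were at least 2-fold higher and 1 lower with OVA under vehicle, where 7.7% and 2.79% of all genes were, and 2 were higher and 1 lower under ribavirin, where 5.87% and 1.93% were. The list's median log2 ratio was 0.05 and 0.03, against 0.19 and 0.26 for all genes. The 6 measured interferon targets other than the members had medians of 0.05 and -0.36. In the T cell clusters 35 genes were measured, 5 were higher and 0 lower under vehicle (13% and 3.06% of all genes) and 4 higher and 1 lower under ribavirin (9.08% and 3.15%), with medians of 0.65 and 0.58 against 0.38 and 0.36.

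Named by the fixed rule, in macrophage-like cells Il12b, a subunit of the interferon gamma inducer interleukin 12, was at 10.1, 1.16, 7.44 and 1.86 CPM, and the OVA libraries were the lower ones. Bhlhe40, a transcription factor, was at 48.0, 344, 52.3 and 340.3 CPM, Il12a at 0.134, 16.6, 1.21 and 5.00, and the integrin gene Itga1 at 0.490, 8.38, 0.276 and 6.86, all higher with OVA. The levels of Il12a and Itga1 without OVA rest on few UMIs, so the size of their rise is poorly fixed. As for Cxcl16, these macrophage-like values compare mainly cluster 5 without OVA with cluster 10 with it. At least 2-fold higher in both pairs of monocyte-like cells were Itga1 and Adam10, the protease that cuts CXCL16, at 82.4, 187, 85 and 192 CPM. Eomes, a transcription factor of cytotoxic lymphocytes, met the rule in T cell-like cells and was at 4.96, 26.8, 3.06 and 11.3 CPM. No listed gene met the rule in NK-like cells.

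The genes most like each member were taken from 49 profiles of a class in a library, by Pearson's r of log2(CPM + 1) over 14642 genes. The profiles share libraries and depth, and r is a description. Cxcl9 was closest to Pnp (0.84), Tmem150b (0.84), Clec4b1 (0.83), Gdpd3 (0.83) and Slamf8 (0.82), with r of 0.78 to Cxcl16 and 0.57 to its genomic neighbour Cxcl10. Cxcl10 was closest to Zbp1 (0.82), Eif4ebp1 (0.81), Gbp5 (0.76), Tbkbp1 (0.75) and Gbp2 (0.74). Cxcl16 was closest to Pid1 (0.94), Tmem106a (0.92), Dab2 (0.91), Rab7b (0.91) and Rab3il1 (0.91). Cxcr3 was close to Gm14029 (0.78), Fam196b (0.77), Cd8a (0.76) and Gpr18 (0.75), and Cxcr6 was closest to Icos (0.97), Podnl1 (0.97), Cd3g (0.97), Camk4 (0.96) and Zap70 (0.96). Between the receptors r was 0.31.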

How the data were processed

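Single-cell 3' RNA libraries of CD45+ nasal mucosa cells, 1 per group, were analysed from the deposited matrices of UMI counts, which the authors made per library with Cell Ranger 5.0.0 on mm10, per the submitters' processing notes. Barcodes were kept from 200 genes and 500 UMIs upward if mitochondrial genes held less than 10% of them, and doublets marked by simulation were removed (0.756% to 5.46% of cells against 4.12% to 11.3% expected, with a threshold set here for Vehicle-OVA). Cells were clustered with leidenalg 0.10.2 (2000 variable genes, 30 components, 15 neighbours, resolution 1) and named from fixed markers, and the naming rule was settled after clustering. UMIs were summed per class and library with numpy 2.4.6 and scipy 1.17.1. Levels carry exact Poisson, shares Clopper-Pearson and ratios conditional binomial 95% intervals, all for counting error only. A ratio needed 50 cells in each library. Background shares used genes with at least 50 UMIs and log2(CPM + 1). Totals were 91742940 to 171873110 UMIs per library. The code was tested on simulated data. Members and lists were chosen with earlier results of these data known. The genes named were the 5 members, Ifng and Irf1, listed genes at least 2-fold apart the same way in both OVA pairs of 4 classes (at most 3 per direction), the 5 genes most like each member and leading genes of clusters, and some genes that met this rule are not reported here. Alternatives to the filters, doublets, scaling, clustering and naming were tried. Cxcl11, Trac and Trbc2 were not analysed here.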

Additional observations from a re-analysis of the deposited data

Results flagged for a closer look

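In 6 results for a member over all cells, in a class or in a cluster, with at least 20 UMIs in each library, the OVA ratio lay above 1 beyond counting error in one pair of libraries and below 1 in the other. The difference between the pairs was not tested, since each group is 1 library. It is given as the log2 ratio under ribavirin minus that under vehicle. For Cxcr6 over all cells it was 1.20 (-0.54 under vehicle and 0.66 under ribavirin). For Cxcr3 in T cell-like cells it was 0.66 (-0.31 and 0.35), a sign that did not hold under 3 alternatives. For Cxcl9 in cluster 2 it was 1.87 (-1.27 and 0.60), and for Cxcr3 in cluster 11 it was 1.35 (-0.39 and 0.96). For Cxcl10 in epithelial-like cells it was -2.52, where the vehicle pair went from 36.7 CPM without OVA to 76.6 with it and the ribavirin pair from 70.9 to 25.8. For Cxcl16 in cluster 25 it was -1.61, from 65.7 to 134 CPM under vehicle and from 105 to 70.1 CPM under ribavirin.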

How the results depend on the processing

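Depth, free RNA and the 1 library per group limit every value, and no alternative can replace a missing replicate. No paired analysis was possible because each group has 1 library and the labels give no replicate numbers. Of 186 alternative values of 20 log2 OVA ratios, 181 kept the sign. The values that moved beyond the counting interval, or changed sign, are given next, and the cause was not tested. For Cxcl9 over all cells, under vehicle the log2 ratio of -2.91 became -2.83 with a mitochondrial limit of 5%, -3.05 as a mean over single cells. For Cxcl9 over all cells, under ribavirin the log2 ratio of -1.74 became -1.66 with a mitochondrial limit of 5%, -1.58 as a mean over single cells, -2.05 relative to the median gene. For Cxcl10 over all cells, under vehicle the log2 ratio of -0.31 became -0.24 with a mitochondrial limit of 5%, -0.35 with a limit of 20%, -0.36 with cells unfiltered, -0.26 with doublets kept, -0.24 as a mean over single cells. For Cxcl10 over all cells, under ribavirin the log2 ratio of -1.23 became -1.04 with a mitochondrial limit of 5%, -1.09 as a mean over single cells, -1.53 relative to the median gene. For Cxcl16 over all cells, under vehicle the log2 ratio of 0.06 became 0.0324 with cells unfiltered, -0.0461 as a mean over single cells. For Cxcl16 over all cells, under ribavirin the log2 ratio of 0.18 became 0.23 with a mitochondrial limit of 5%, 0.16 with cells unfiltered, 0.44 as a mean over single cells, -0.12 relative to the median gene. For Cxcr3 over all cells, under vehicle the log2 ratio of -1.58 became -1.73 with a mitochondrial limit of 5%, -1.91 as a mean over single cells. For Cxcr3 over all cells, under ribavirin the log2 ratio of -0.31 became -0.21 as a mean over single cells, -0.61 relative to the median gene. For Cxcr6 over all cells, under vehicle the log2 ratio of -0.54 became -0.74 with a mitochondrial limit of 5%, -0.58 with cells unfiltered, -0.99 as a mean over single cells. For Cxcr6 over all cells, under ribavirin the log2 ratio of 0.66 became 0.62 with cells unfiltered, 0.91 as a mean over single cells, 0.35 relative to the median gene. For Cxcl9 in monocyte-like cells, under vehicle the log2 ratio of -1.98 became -4.76 with a mitochondrial limit of 5%, -3.13 with cells unfiltered, -4.57 with doublets kept, -2.26 relative to the median gene, -2.10 at resolution 0.5, -1.79 at resolution 2.0, -7.71 with each library clustered alone, -3.05 with classes from single-cell markers, -2.27 with members used in the clustering, -2.07 without the Ly6i cluster, -2.71 over the mononuclear phagocytes. For Cxcl9 in monocyte-like cells, under ribavirin the log2 ratio of -0.92 became -5.18 with a mitochondrial limit of 5%, -2.55 with a limit of 20%, -5.22 with cells unfiltered, -5.53 with doublets kept, -1.24 relative to the median gene, -3.52 at resolution 0.5, -2.24 at resolution 2.0, -4.32 with each library clustered alone, -2.53 with classes from single-cell markers, -2.15 with members used in the clustering, -3.57 without the Ly6i cluster, -1.76 over the mononuclear phagocytes. For Cxcl10 in monocyte-like cells, under vehicle the log2 ratio of -0.59 became -2.82 with a mitochondrial limit of 5%, -2.54 with a limit of 20%, -0.86 with cells unfiltered, -2.11 with doublets kept, -0.87 relative to the median gene, -0.48 at resolution 0.5, -3.19 at resolution 2.0, -3.05 with each library clustered alone, -0.84 with classes from single-cell markers, -0.34 without the Ly6i cluster. For Cxcl10 in monocyte-like cells, under ribavirin the log2 ratio of -1.34 became -2.20 with a mitochondrial limit of 5%, -1.94 with a limit of 20%, -2.47 with cells unfiltered, -1.89 with doublets kept, -1.66 relative to the median gene, -1.89 at resolution 0.5, -1.93 at resolution 2.0, -3.96 with each library clustered alone, -1.62 with classes from single-cell markers, -1.88 with members used in the clustering, -1.98 without the Ly6i cluster, -1.18 over the mononuclear phagocytes. For Cxcl16 in macrophage-like cells, under vehicle the log2 ratio of 0.25 became 0.35 as a mean over single cells, 0.0748 relative to the median gene, 0.17 at resolution 2.0, 0.14 with each library clustered alone, 0.28 with classes from single-cell markers, 0.29 with members used in the clustering. For Cxcl16 in macrophage-like cells, under ribavirin the log2 ratio of 0.30 became 0.34 with a limit of 20%, 0.37 as a mean over single cells, 0.0907 relative to the median gene. For Cxcr3 in T cell-like cells, under vehicle the log2 ratio of -0.31 became -0.70 relative to the median gene, -0.54 at resolution 0.5, -0.0108 at resolution 2.0. For Cxcr3 in T cell-like cells, under ribavirin the log2 ratio of 0.35 became -0.0272 relative to the median gene, -0.13 with classes from single-cell markers, -0.0103 over all T cell clusters. For Cxcr6 in T cell-like cells, under vehicle the log2 ratio of 0.75 became 0.80 with a mitochondrial limit of 5%, 0.68 with doublets kept, 0.60 as a mean over single cells, 0.36 relative to the median gene, 0.89 at resolution 0.5, 0.00471 at resolution 2.0, 0.87 with each library clustered alone, 0.60 with classes from single-cell markers, 0.58 over all T cell clusters. For Cxcr6 in T cell-like cells, under ribavirin the log2 ratio of 0.85 became 0.99 with a mitochondrial limit of 5%, 0.48 relative to the median gene, 0.93 at resolution 0.5, 0.37 at resolution 2.0, 0.61 with each library clustered alone, 0.80 with classes from single-cell markers. The sign changed for Cxcl16 over all cells and for Cxcr3 in T cell-like cells under ribavirin. The monocyte-like ratios of Cxcl9 moved the most, and the wider sets, the Ly6i alternative and the Lcn3 alternative were chosen after seeing the data. Relative to the median gene, 1 and not 3 members were at least 1.5-fold apart between Ribavirin-OVA and Vehicle-OVA. The number of levels by class, library and member with a UMI in at least 10% of cells was 32 after thinning and 80 without it. The share of genes past 2-fold in the macrophage-, monocyte-, T cell- and NK-like classes was 14.5% with a pseudocount of 1 CPM and 8.18% with 5 CPM.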
